A study of Mus musculus with 12 samples.

Results

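The 39 genes described here encode the machinery that copies DNA in S phase: cyclins and E2F factors of S phase entry, the origin licensing and helicase proteins, polymerases and primase, the sliding clamp and its loader, enzymes of nucleotide supply, and histone and chromatin factors. They were a named list, found by gene symbol among 19938 genes measured in MIN6 cells, a mouse insulinoma line that stands in for pancreatic beta cells, and all 39 had a probe set that names a single gene. The list was proposed with earlier results of these arrays known, but no measured value entered the rule. In dividing cells most of these genes are transcribed in a wave at the G1/S boundary, when cyclin-dependent kinases release E2F factors from the retinoblastoma protein family. Their products then load and fire the MCM helicase at origins, synthesise both strands and pack them into chromatin. Adult beta cells divide rarely, whereas an insulinoma line divides in culture.

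RNA was hybridized to 12 Affymetrix arrays in 4 groups. The DC group labelled Hes3 siRNA (4 arrays, numbered 1, 2, 5 and 7) held cells given siRNA against Hes3, a basic helix-loop-helix repressor, in serum-free medium at 5% oxygen. The DC scrambled group (4 arrays, 1 to 4) had a control siRNA in the same conditions. The CC group labelled Hes3 siRNA and the CC scrambled group (2 arrays each, 1 and 2) had the same siRNAs in serum medium at 20% oxygen. In all groups cells had been maintained with 15% fetal calf serum, plated at 50000 per well, transfected with 2 µM siRNA and studied after 12 to 24 hours, and each array took 250 ng of RNA. All groups came from 1 cell line, and per the labels 1 experiment supplied every sample. The p-values therefore reflect no more than the spread among these samples, which may be technical. Serum and oxygen differ together between DC and CC, and their parts cannot be told apart.

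The Hes3 signal was no lower where the label says Hes3 siRNA. The log2 signal was 7.37, 7.36, 7.38 and 7.25 in DC arrays so labelled, against 7.10, 7.24, 7.19 and 7.22 in DC scrambled arrays (log2 fold change 0.15 ± 0.0767 SE, limma adjusted p = 0.114), and in CC it was 7.22 and 7.23 in arrays labelled Hes3 siRNA, against 7.23 and 6.82 in scrambled arrays (limma adjusted p = 1). Groups are therefore called by their label. Hes3 was dim, at the 29.8th percentile of mean signal. The second dimmest of 4 equal parts of the genes by mean signal had a median of 0.21 with the label in DC, with 56.9% higher. Whether this probe set would register a knockdown was not tested. DC arrays 1 and 5 labelled Hes3 siRNA lay apart from arrays 2 and 7, with a median deviation over all genes of 0.08 and 0.06 against 0.02 and 0.01 (log2). Over the 39 genes they did not: arrays 1, 5 and 7 were at -0.15, -0.19 and -0.17, and array 2 at -0.09. CC scrambled arrays 1 and 2 lay apart over the 39 genes, at 0.06 and 0.27. The counts of each gene list that rest on these arrays are given with and without them. Array medians ran from 7.78 to 7.96 over the 12 arrays, and the number of arrays limits the precision. Of 11 measured beta cell markers, 10 lay at or above the 90.3th percentile of mean signal, and the glucose transporter gene Slc2a2 lay at the 39.4th. Gcg and Sst, hormone genes of alpha and delta cells, were also bright, at the 99.2th and 98.4th percentiles. The other measured alpha, delta and PP cell markers lay at the 15.3th to 65th percentile. In total RNA from a culture, fewer cells in S phase and less RNA per cell cannot be told apart.

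Promoters are shown first, since E2F sites are a known feature of S phase promoters. They are those of the 4 genes with the smallest p under the siRNA label in DC, less Ccne2 and Pole, which had no match, and of the 4 with the smallest p in the culture comparison under scrambled siRNA. RefSeq (GRCm38.p6) gave a start site for 33 of the 39 members, and 6 were not matched: Mcm4, Ccne2, Gins1, Gins2, Pole and Rfc2. Each window searched ran from 250 bases before to 50 after the start. Searched on both strands were 4 E2F forms (TTTCCCGC, TTTCGCGC, TTTGCCGC and TTTGGCGC), the CCAAT box and the CHR element TTTGAA, a cell cycle element known from mitotic promoters. The lines give the 250 bases before each start, on the strand of the gene, with every match in capitals. Rrm1 is at chr7:102441445-102441694 on the plus strand, Pola1 at chrX:93632156-93632405 on the minus strand, Rrm2 at chr12:24708004-24708253 on the plus strand, Prim1 at chr10:128014965-128015214 on the plus strand and Cdc45 at chr16:18811973-18812222 on the minus strand. E2f2 has 2 start sites on the plus strand, with stretches at chr4:136172024-136172273 and chr4:136180532-136180781. Mcm6, at chr1:128359706-128359955 on the minus strand, was added after its sites were seen, as an example with several E2F forms.
Rrm1: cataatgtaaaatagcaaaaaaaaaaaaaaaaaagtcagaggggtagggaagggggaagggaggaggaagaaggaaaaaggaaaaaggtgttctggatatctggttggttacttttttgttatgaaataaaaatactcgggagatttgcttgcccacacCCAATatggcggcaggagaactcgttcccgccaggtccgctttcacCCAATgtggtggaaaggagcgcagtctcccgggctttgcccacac
Pola1: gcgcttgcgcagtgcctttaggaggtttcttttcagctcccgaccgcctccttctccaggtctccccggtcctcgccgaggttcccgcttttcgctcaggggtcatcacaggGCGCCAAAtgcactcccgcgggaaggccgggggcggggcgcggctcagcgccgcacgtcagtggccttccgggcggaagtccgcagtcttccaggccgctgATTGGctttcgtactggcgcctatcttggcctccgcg
Rrm2: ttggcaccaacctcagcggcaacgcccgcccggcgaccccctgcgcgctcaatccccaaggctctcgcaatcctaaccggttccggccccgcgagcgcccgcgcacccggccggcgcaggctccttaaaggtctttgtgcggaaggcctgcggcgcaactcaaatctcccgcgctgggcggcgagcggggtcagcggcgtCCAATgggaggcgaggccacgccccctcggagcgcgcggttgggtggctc
Prim1: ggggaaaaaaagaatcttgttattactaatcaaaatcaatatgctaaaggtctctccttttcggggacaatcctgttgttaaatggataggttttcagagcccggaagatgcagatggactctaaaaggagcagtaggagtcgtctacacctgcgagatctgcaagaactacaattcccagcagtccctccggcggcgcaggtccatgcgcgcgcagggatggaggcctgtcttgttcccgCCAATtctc
E2f2, first start: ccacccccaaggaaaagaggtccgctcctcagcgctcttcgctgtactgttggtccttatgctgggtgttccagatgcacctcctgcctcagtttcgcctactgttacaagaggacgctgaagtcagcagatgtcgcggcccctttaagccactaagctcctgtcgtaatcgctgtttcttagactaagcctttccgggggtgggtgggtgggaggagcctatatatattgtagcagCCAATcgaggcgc
E2f2, second start: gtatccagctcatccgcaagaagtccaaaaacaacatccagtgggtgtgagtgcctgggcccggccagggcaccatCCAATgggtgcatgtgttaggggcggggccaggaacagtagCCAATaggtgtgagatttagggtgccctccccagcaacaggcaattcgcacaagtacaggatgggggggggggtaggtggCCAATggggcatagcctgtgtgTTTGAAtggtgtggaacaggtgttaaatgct
Cdc45: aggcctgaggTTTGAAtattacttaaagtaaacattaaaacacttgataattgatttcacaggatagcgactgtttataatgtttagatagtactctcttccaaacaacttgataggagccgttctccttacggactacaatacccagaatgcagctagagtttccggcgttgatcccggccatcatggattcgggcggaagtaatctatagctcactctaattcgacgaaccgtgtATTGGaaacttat
Mcm6: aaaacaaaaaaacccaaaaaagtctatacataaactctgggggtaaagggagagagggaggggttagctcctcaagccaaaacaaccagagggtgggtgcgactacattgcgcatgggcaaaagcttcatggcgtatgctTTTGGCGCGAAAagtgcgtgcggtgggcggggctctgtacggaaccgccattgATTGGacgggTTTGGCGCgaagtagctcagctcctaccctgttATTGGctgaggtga

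An E2F form stood in a window of 13 of the 33 members with a promoter, or 39.4%, against 2.6% of the 27025 genes with a promoter, where a gene with several start sites counts once. Pola1 had 1 and Mcm6 had 3 in the stretch shown, and the first 2 of Mcm6 overlap by 4 bases. E2f2 had 1 after its first start, at base 40, outside the stretch shown. The windows of Rrm1, Rrm2, Prim1 and Cdc45 held none of the 4 exact forms, which says only that these letters are not in this window. A CCAAT box stood in 57.6% of members and 41.1% of all genes, and TTTGAA in 12.1% and 20.2%. Of 24 mitosis genes with a promoter 4.17% had an E2F form and 75% had TTTGAA. Median GC content was 61.3% for members, 59.8% for mitosis genes and 52.8% for all genes, and its part in these shares was not tested. A match is a description of the sequence and not evidence of binding.

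The first question was what the culture conditions did to these genes: DC against CC under scrambled siRNA, with 4 arrays against 2. Of the 39 genes, 8 were lower in DC and 0 higher (limma adjusted p under 0.05, Benjamini-Hochberg over all genes), where 5.45% of all 19938 genes were lower and 3.09% higher. They were Rrm2, Prim1, E2f2, Cdc45, Tyms, Cdc6, Cdt1 and E2f1, which span nucleotide supply, priming, E2F factors, origin licensing and helicase activation. No subunit of the MCM helicase and none of the clamp and clamp loader genes passed. The median log2 fold change of the 39 was -0.21, against 0.02 for all genes and -0.04 for the brightest of 4 equal parts of the genes by mean signal, a part that holds 30 of the 39 and of which 11.9% were lower. The members' median was -0.09 without CC scrambled array 2 and -0.26 without CC scrambled array 1. Of the 39, 33 had a negative fold change. Arrays of the groups did not overlap for 19 lower and 2 higher members, where 14.1% and 13.8% of all genes did not overlap in those directions.

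The same culture comparison among arrays labelled Hes3 siRNA, on 6 other arrays, had 26 of the 39 lower in DC and 1 higher, where 18.8% of all genes were lower and 21.2% higher (40.1% in either direction). The median of the 39 was -0.37, against 0.09 for all genes and -0.19 for the brightest part, of which 44.5% were lower. Arrays did not overlap for 29 lower and 1 higher member, where 23.4% and 38.4% of all genes did not overlap in those directions. Of the 8 genes lower under scrambled siRNA, 7 were also lower here, which is 7 of 8 and 7 of 26. Cdc6 was the exception, at -0.18 ± 0.0764 (SE; limma adjusted p = 0.0687). The larger count here is not shown to differ: the test of the difference between both siRNA labels' culture effects called 0 of the 39 members, with 9 at an unadjusted p under 0.05. Each sample's deviations are drawn in the plot of signal by array.

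**Figure D1:**
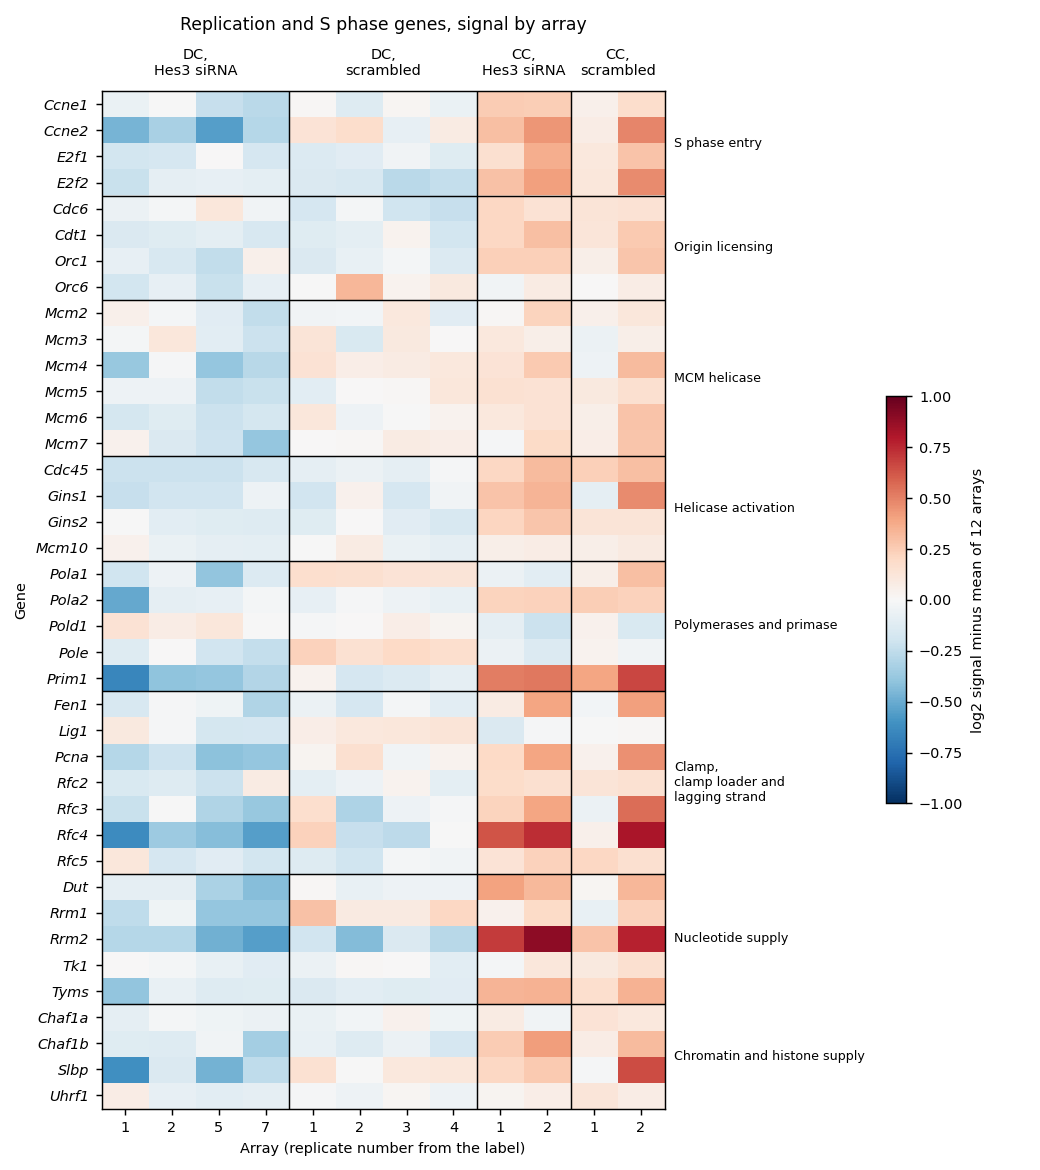
Log2 signal of each of the 39 genes (rows, grouped by role) in each of the 12 arrays (columns, by group and replicate number), minus the gene's mean over 12 arrays; red is above and blue below that mean. Most genes are red in the CC arrays and blue in DC under the Hes3 label, and CC scrambled array 1 is paler than CC scrambled array 2.

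Nucleotide supply held the member with the smallest p. Rrm2, the S phase-restricted small subunit of ribonucleotide reductase, had a log2 signal of 9.58, 9.34, 9.63 and 9.49 in DC scrambled arrays, against 10.1 and 10.5 in CC scrambled arrays (log2 fold change -0.79 ± 0.122 SE, limma adjusted p = 0.000615). In arrays labelled Hes3 siRNA it was 9.48, 9.49, 9.30 and 9.22 in DC, against 10.5 and 10.7 in CC (-1.20 ± 0.122 SE, limma adjusted p = 7.19e-06). Every DC array lay below every CC array under either siRNA. Tyms, thymidylate synthase, was at 10.5 to 10.6 in the 4 DC scrambled arrays, against 10.83 and 11.01 in CC scrambled arrays (-0.38 ± 0.0859 SE, limma adjusted p = 0.0102), and in arrays labelled Hes3 siRNA its fold change was -0.52 (limma adjusted p = 0.000454). Dut, the dUTPase that keeps uracil out of DNA, passed among arrays labelled Hes3 siRNA, at -0.59 ± 0.102 SE, and not under scrambled siRNA, at -0.22 ± 0.102. The large reductase subunit Rrm1 did not pass under scrambled siRNA: its signal was 11.5, 11.3, 11.3 and 11.4 in DC scrambled arrays against 11.1 and 11.4 in CC scrambled arrays, with overlapping groups and a fold change of 0.09 ± 0.107. Thymidine kinase Tk1 passed in neither comparison (-0.17 ± 0.0707 under scrambled siRNA, -0.10 ± 0.0707 under the Hes3 label).

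Among polymerases and primase, Prim1, the catalytic primase subunit, stood at 9.64, 9.43, 9.46 and 9.51 in DC scrambled arrays, against 10.0 and 10.3 in CC scrambled arrays (-0.62 ± 0.101 SE, limma adjusted p = 0.000878). In arrays labelled Hes3 siRNA it was 8.95, 9.20, 9.21 and 9.31 in DC, against 10.1 in both CC arrays (-0.95 ± 0.101 SE, limma adjusted p = 9.98e-06). The groups did not overlap in either case. Of its partners in the same primosome, Pola2, the regulatory subunit, had -0.29 ± 0.106 under scrambled siRNA and -0.41 ± 0.106 under the Hes3 label, where it passed, while Pola1, the catalytic alpha subunit, had -0.03 ± 0.0908 and -0.11 ± 0.0908. Pole, of leading strand synthesis, had 0.19 ± 0.0752 and -0.04 ± 0.0752 and passed in neither. Pold1, catalytic subunit of the lagging strand polymerase, was the 1 member that rose: 9.95, 9.88, 9.92 and 9.80 in DC, against 9.72 and 9.60 in CC, in arrays labelled Hes3 siRNA (0.23 ± 0.0754 SE, limma adjusted p = 0.0277). Under scrambled siRNA its groups overlapped (0.08 ± 0.0754).

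**Figure D2:**
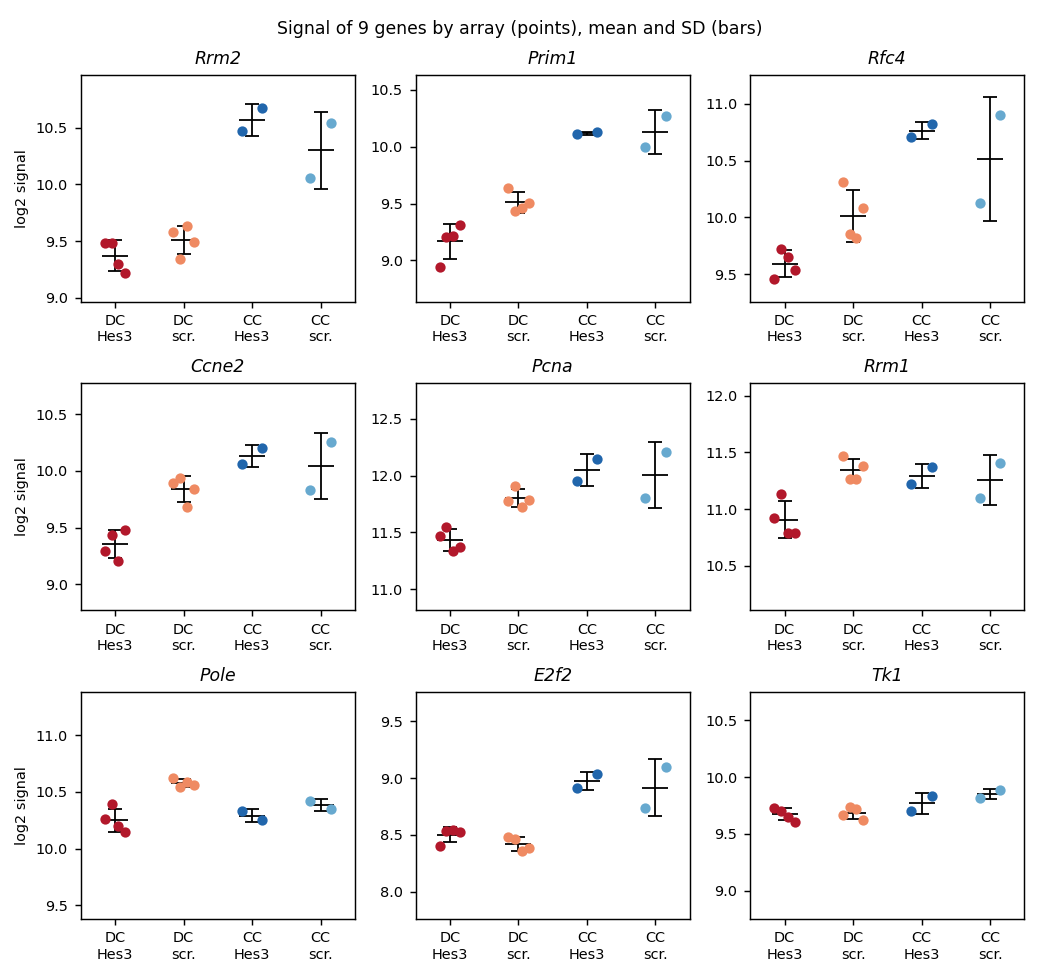
Log2 signal of 9 genes in each array (points), with group mean and SD (bars), in DC arrays labelled Hes3 siRNA, DC scrambled, CC labelled Hes3 siRNA and CC scrambled; each axis spans the same number of log2 units, and its position differs by gene. Rrm2 and Prim1 are lower in all DC arrays, Rrm1 and Pole are lower in the DC arrays labelled Hes3 siRNA than in the DC scrambled arrays, and Tk1 differs little.

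Of the S phase entry genes, the activator E2f2 was at 8.48, 8.47, 8.35 and 8.39 in DC scrambled arrays, against 8.74 and 9.10 in CC scrambled arrays (-0.49 ± 0.0905 SE, limma adjusted p = 0.00229). E2f1, the founding E2F activator, was at 9.93, 9.96, 10.0 and 9.95 in DC scrambled arrays, against 10.2 and 10.4 in CC scrambled arrays (-0.30 ± 0.0840 SE, limma adjusted p = 0.0344). Both were lower under the Hes3 label too, at -0.47 and -0.39, and no DC array reached a CC array for either gene. The cyclins E of the G1/S kinase, Ccne1 and Ccne2, had -0.15 ± 0.0841 and -0.20 ± 0.111 under scrambled siRNA and did not pass, and passed under the Hes3 label at -0.39 ± 0.0841 and -0.78 ± 0.111. All 4 genes of this role were thus lower under the Hes3 label and 2 of 4 under scrambled siRNA. In the same order, 18.8% and 5.45% of all genes were lower, and 44.5% and 11.9% of the brightest part.

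Origin licensing genes Cdc6 and Cdt1, the loaders of the MCM helicase, were lower under scrambled siRNA. Cdc6 was at 8.60, 8.75, 8.57 and 8.54 in DC, against 8.90 and 8.91 in CC (-0.29 ± 0.0764 SE, limma adjusted p = 0.0238). Cdt1 was at 9.63, 9.65, 9.79 and 9.57 in DC, against 9.87 and 10.0 in CC (-0.28 ± 0.0752 SE, limma adjusted p = 0.0281). Of the origin recognition complex, Orc1, its cell cycle-regulated subunit, had -0.26 ± 0.0867 under scrambled siRNA (limma adjusted p = 0.0845) and passed under the Hes3 label (-0.35 ± 0.0867), whereas Orc6 passed in neither (0.08 ± 0.0908 and -0.17 ± 0.0908). Cdc45, which joins MCM and GINS in the active helicase, was at 9.71, 9.74, 9.71 and 9.79 in DC scrambled arrays, against 10.0 and 10.1 in CC scrambled arrays (-0.33 ± 0.0659 SE, limma adjusted p = 0.00401), and at -0.46 under the Hes3 label. Its GINS partners Gins1 and Gins2 passed under the Hes3 label (-0.48 ± 0.118 and -0.34 ± 0.0702) and not under scrambled siRNA, where Gins2 lay just outside (-0.23 ± 0.0702, limma adjusted p = 0.0544). Mcm10, a helicase activator, passed in neither (-0.09 and -0.12).

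For the MCM helicase subunits themselves the fold changes were smaller. Under scrambled siRNA the 6 genes Mcm2 to Mcm7 had fold changes between -0.15 and 0.02, with 0 of 6 past the test and overlapping arrays for each. Among arrays labelled Hes3 siRNA 3 of 6 were lower in DC (18.8% of all genes and 44.5% of the brightest part): Mcm4 (-0.46 ± 0.109), Mcm6 (-0.30 ± 0.0764) and Mcm5 (-0.28 ± 0.0810). Mcm7 (-0.26), Mcm2 (-0.20) and Mcm3 (-0.14) did not pass.

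At the replication fork, 6 of the 7 clamp, clamp loader and lagging strand genes were lower under the Hes3 label (18.8% of all genes and 44.5% of the brightest part) and 0 of 7 under scrambled siRNA. The largest difference was of Rfc4, a clamp loader subunit, with 9.46, 9.72, 9.66 and 9.53 in DC, against 10.7 and 10.8 in CC, in arrays labelled Hes3 siRNA (-1.17 ± 0.166 SE, limma adjusted p = 0.000121). Under scrambled siRNA it was at 10.3, 9.85, 9.82 and 10.1 in DC, against 10.1 and 10.9 in CC, so those groups overlapped (-0.51 ± 0.166 SE, limma adjusted p = 0.0762). Pcna, the sliding clamp, was -0.62 ± 0.104 under the Hes3 label and -0.21 ± 0.104 under scrambled siRNA. With the Hes3 label the loader subunits Rfc3, Rfc2 and Rfc5 had -0.54, -0.28 and -0.27 and the flap nuclease Fen1 -0.37, all past the test, and DNA ligase Lig1, which seals Okazaki fragments, had 0.02 and did not pass. Of the chromatin and histone genes, Slbp, which binds histone mRNA (-0.61 ± 0.145), and Chaf1b, a subunit of the CAF-1 histone chaperone (-0.50 ± 0.0914), were lower under the Hes3 label. Chaf1b lay just outside under scrambled siRNA (-0.30 ± 0.0914, limma adjusted p = 0.0521), and Chaf1a, its CAF-1 partner, and Uhrf1, a reader of hemimethylated DNA, passed in neither.

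**Figure D3:**
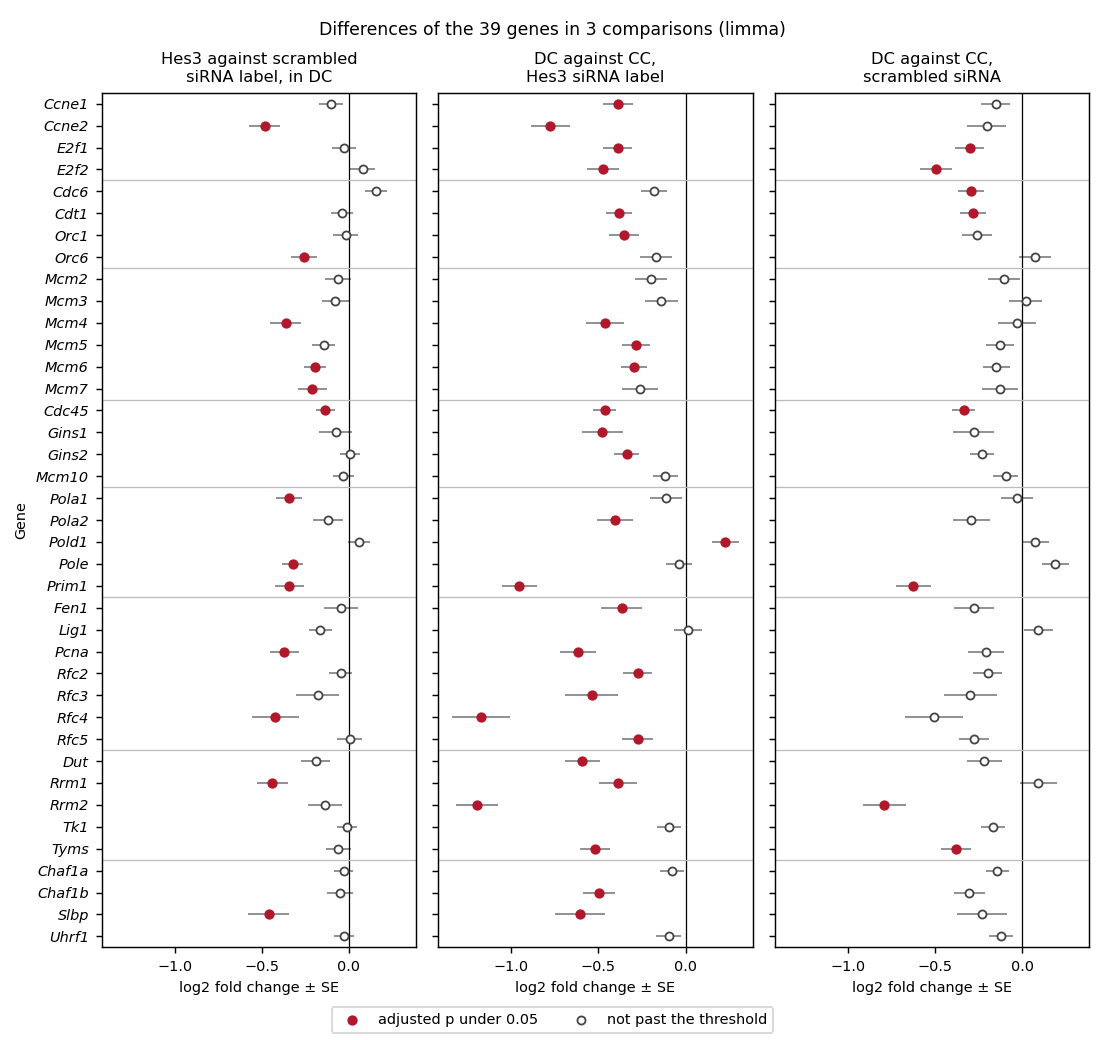
Log2 fold change with its SE (limma) of each of the 39 genes, grouped by role, for the arrays labelled Hes3 siRNA against scrambled in DC (left), DC against CC under the Hes3 label (middle) and DC against CC under scrambled siRNA (right); filled points have an adjusted p under 0.05. There are 13, 27 and 8 filled points, all negative except Pold1 in the middle panel.

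These culture counts rest on few CC arrays, and the share of all genes that passed rose or fell with each count below. Under scrambled siRNA that share was 8.54%, 6.62% without DC scrambled array 4 and 10.9% without DC arrays 1 and 5 labelled Hes3 siRNA. Under scrambled siRNA the count of 8 was 16 without CC scrambled array 1, 2 without CC scrambled array 2, 5 without DC scrambled array 4 and 12 without DC arrays 1 and 5 labelled Hes3 siRNA, which enter this comparison through the shared estimate of spread alone. Rrm2 and Prim1 were the 2 left without CC scrambled array 2, and both kept their call in all 17 alternatives run. The count of 27 under the Hes3 label was 13 without CC array 2 and 21 without DC arrays 1 and 5, where 18.2% of all genes passed, and in both cases Pold1 lost its call.

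The second question was what the siRNA label did within DC, with 4 arrays against 4. Of the 39 genes, 13 were lower in the arrays labelled Hes3 siRNA and 0 higher, where 18.3% of all genes were lower and 28.9% higher (47.2% in either direction). The arrays did not overlap for 13 lower members, where 17% of all genes did not overlap in that direction and 23.9% did not in the other. In order of p they were Ccne2, Pole, Rrm1, Pola1, Pcna, Prim1, Mcm4, Slbp, Orc6, Rfc4, Mcm6, Cdc45 and Mcm7. The largest change was 1.4-fold and 0 reached 1.5-fold. Just outside the threshold were Lig1 (-0.16, limma adjusted p = 0.0507) and Cdc6 (0.15, limma adjusted p = 0.0533). Bright genes were lower as a class here: the brightest part of the genes had a median of -0.15 with 40.9% lower, and the 39 genes had a median of -0.10 with 33.3% lower, so the members' share was no higher than that of genes of like signal. Without DC arrays 1 and 5 labelled Hes3 siRNA, 0 of the 39 passed and 1.66% of all genes did, with a member median of -0.11. After cyclic loess 7 members passed (21.6% of all genes) and their median was 0.0002. After quantile normalization 8 were lower and Cdc6 higher (11.8% and 17% of all genes), with a median of -0.01.

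**Figure D4:**
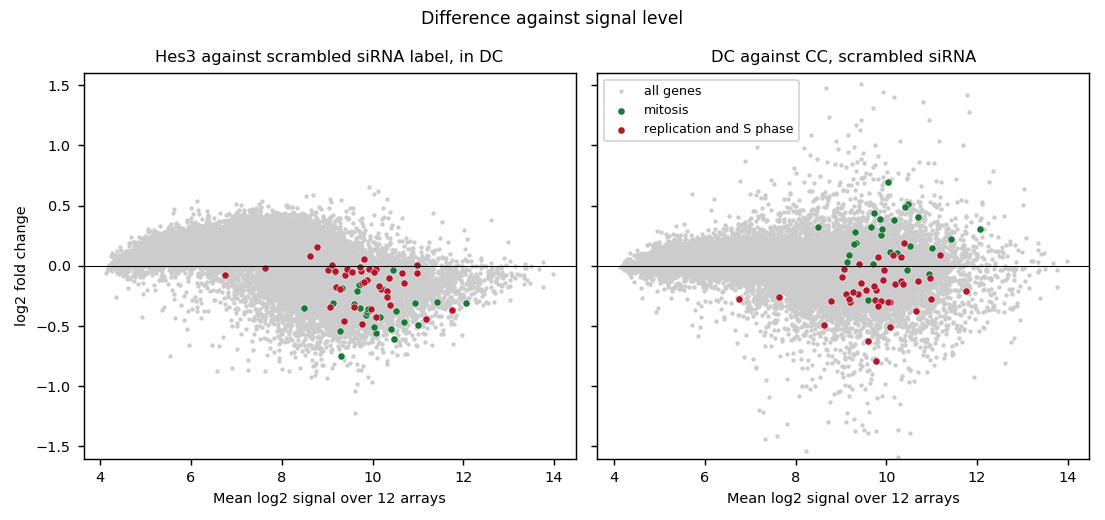
Log2 fold change of every gene against its mean log2 signal over 12 arrays, for the arrays labelled Hes3 siRNA against scrambled in DC (left) and DC against CC under scrambled siRNA (right; 9 genes lie beyond the axis of ±1.6), with the 39 genes in red and 26 mitosis genes in green. On the left the grey cloud bends down at high signal and the red points lie within it; on the right the red points lie mostly below 0 and the green points mostly above.

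By role, polymerases and primase had the largest share lower in this comparison, 3 of 5, and the MCM helicase had 3 of 6. Of all genes 18.3% were lower, and of the brightest part 40.9%. Whether roles differ was not tested. Pole was at 10.3, 10.4, 10.2 and 10.2 in DC arrays labelled Hes3 siRNA, against 10.6, 10.5, 10.6 and 10.6 in DC scrambled arrays (-0.32 ± 0.0614 SE, limma adjusted p = 0.00335). Pola1 was at 8.87, 9.01, 8.67 and 8.93 in DC arrays labelled Hes3 siRNA, against 9.23, 9.23, 9.20 and 9.19 in DC scrambled arrays (-0.35 ± 0.0741 SE, limma adjusted p = 0.00473). Prim1 had -0.34 ± 0.0823 SE (limma adjusted p = 0.00688), and none of these 3 genes overlapped between the labels. Pola2 (-0.12) and Pold1 (0.06) did not pass.

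Ccne2 had the smallest p of the 39 in DC, at 9.29, 9.44, 9.21 and 9.48 in arrays labelled Hes3 siRNA, against 9.90, 9.94, 9.68 and 9.84 in scrambled arrays (-0.48 ± 0.0906 SE, limma adjusted p = 0.00326). Its paralog Ccne1 (-0.10 ± 0.0687) and the factors E2f1 (-0.03 ± 0.0686) and E2f2 (0.08 ± 0.0739) did not pass, and their arrays overlapped. In nucleotide supply Rrm1 was the member that passed. It was at 10.9, 11.1, 10.8 and 10.8 in arrays labelled Hes3 siRNA, against 11.5, 11.3, 11.3 and 11.4 in scrambled arrays (-0.44 ± 0.0873 SE, limma adjusted p = 0.00371), and Rrm2 had -0.14 ± 0.0995 with overlapping arrays. Dut was lower without overlap but did not pass (-0.19 ± 0.0834 SE, limma adjusted p = 0.0699), and Tyms (-0.06) and Tk1 (-0.01) did not pass.

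Pcna was at 11.5, 11.6, 11.3 and 11.4 in DC arrays labelled Hes3 siRNA, against 11.8, 11.9, 11.7 and 11.8 in DC scrambled arrays (-0.37 ± 0.0851 SE, limma adjusted p = 0.00584), and its second probe set gave -0.38. Slbp was at 8.76, 9.23, 8.90 and 9.12 in DC arrays labelled Hes3 siRNA, against 9.52, 9.37, 9.48 and 9.48 in DC scrambled arrays (-0.46 ± 0.119 SE, limma adjusted p = 0.00877), and its second probe set gave -0.29. Neither gene overlapped between the labels. Rfc4 (-0.42 ± 0.136 SE, limma adjusted p = 0.0213) passed, and the other clamp loader subunits among the 39, Rfc2, Rfc3 and Rfc5, did not, at -0.05, -0.18 and 0.004. Fen1 (-0.05), Chaf1a (-0.03), Chaf1b (-0.05) and Uhrf1 (-0.03) lay near 0.

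Of the MCM helicase, 3 of 6 were lower in DC arrays labelled Hes3 siRNA. Mcm4 was at 9.58, 9.94, 9.57 and 9.68 there, against 10.1, 10.0, 10.0 and 10.1 in DC scrambled arrays (-0.36 ± 0.0891 SE, limma adjusted p = 0.00731). Mcm6 (-0.19 ± 0.0624) and Mcm7 (-0.21 ± 0.0839, limma adjusted p = 0.0496) passed more narrowly, and the arrays of Mcm7 overlapped. Mcm2, Mcm3 and Mcm5 had -0.06, -0.08 and -0.14 and did not pass. Orc6 was at 10.1, 10.2, 10.1 and 10.2 in arrays labelled Hes3 siRNA, against 10.3, 10.7, 10.4 and 10.4 in scrambled arrays (-0.26 ± 0.0741 SE, limma adjusted p = 0.0137). Cdc45 passed narrowly (-0.14 ± 0.0538 SE, limma adjusted p = 0.0484), and Cdt1 (-0.04), Orc1 (-0.02), Gins1 (-0.08), Gins2 (0.01) and Mcm10 (-0.03) did not.

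The 3 comparisons share arrays: the DC arrays of either label enter the siRNA comparison and a culture comparison. Set side by side, Prim1 and Cdc45 passed in all 3, and 7 genes passed in none: Mcm2, Mcm3, Mcm10, Uhrf1, Chaf1a, Lig1 and Tk1. Past the threshold with the label in DC and with culture under the Hes3 label were 7 more genes, among them Ccne2, Pcna, Rrm1 and Rfc4. Mcm7, Pola1, Pole and Orc6 passed with the label in DC and in neither culture comparison, and 12 genes, among them Dut, Chaf1b and Gins1, were lower past the threshold with culture under the Hes3 label and in neither of the others. A threshold passed in one comparison and missed in another does not show a difference between them.

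In CC, with 2 arrays against 2, the siRNA label called 0 of the 39 and 0% of all genes by limma, where 415 genes and 1 member, Pola1, had an unadjusted p under 0.05. The median of the 39 was 0.04 and of all genes 0.02. Arrays did not overlap for 4 higher and 6 lower members, where 13.9% and 13.1% of all genes did not overlap in those directions. Pola1 was at 9.001 and 8.959 in CC arrays labelled Hes3 siRNA, against 9.12 and 9.36 in CC scrambled arrays (-0.26 ± 0.105 SE, limma adjusted p = 1). Rrm2 was at 10.5 and 10.7 in CC arrays labelled Hes3 siRNA, against 10.1 and 10.5 in CC scrambled arrays (0.27 ± 0.141 SE, limma adjusted p = 1), with overlapping groups. The test of whether the label's difference in DC differs from that in CC called 0 of the 39 and 0% of all genes, with 9 members and 3471 genes at an unadjusted p under 0.05. Ccne2 had the smallest p of the 39 (difference of log2 fold changes -0.57 ± 0.157 SE, limma adjusted p = 0.179), and the members' median was -0.13 against 0.05 for all genes. Without CC scrambled array 2, 9 members passed this test, all more negative in DC, where 7.85% of all genes passed in that direction and 2.46% in the other: Rfc4, Ccne2, Pcna, Slbp, Rrm1, Rrm2, Mcm4, Gins1 and Dut.

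**Figure D5:**
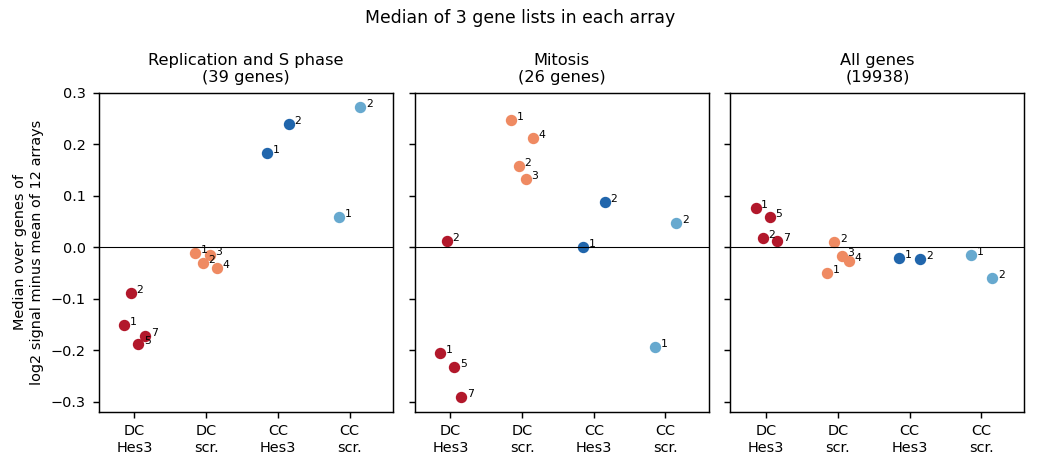
Median over the genes of a list of log2 signal minus the gene's mean over 12 arrays, for each array (points, with replicate number), for the 39 genes, 26 mitosis genes and all genes, in DC arrays labelled Hes3 siRNA, DC scrambled, CC labelled Hes3 siRNA and CC scrambled. The 39 genes are lowest in DC under the Hes3 label (-0.19 to -0.09) and highest in CC (0.06 to 0.27), while mitosis genes are highest in the DC scrambled arrays (0.13 to 0.25).

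Other genes of the replication pathway came from a list that does not overlap the 39. Of 46 other replication factors, 5 (10.9%) were lower and 0 higher in DC against CC under scrambled siRNA, where 5.45% of all genes and 11.9% of the brightest part were lower: the GINS subunit Gins3 (-0.53 ± 0.0983), the polymerase epsilon subunit Pole3 (-0.38 ± 0.0868), the fork protein Donson (-0.36 ± 0.0853), the PCNA-binding factor Pclaf (-0.36 ± 0.0915) and Rpa2 (-0.22 ± 0.0662). That count was 11 without CC scrambled array 1, 3 without DC scrambled array 4 and 0 without CC scrambled array 2. With culture under the Hes3 label 30 of 46 were lower, where 18.8% of all genes and 44.5% of the brightest part were (20 of 46 without CC array 1 so labelled, 13 without CC array 2 and 19 without DC arrays 1 and 5). With the label in DC 25 of 46 were lower, where 18.3% of all genes and 40.9% of the brightest part were, among them Pole4 (-0.63 ± 0.102), Pole2 (-0.39 ± 0.0722), the clamp unloader Atad5 (-0.47 ± 0.0880) and the FACT subunit Supt16 (-0.43 ± 0.0842), and 2 of 46 without DC arrays 1 and 5. Limma adjusted p was 0.00267 for Gins3 with culture and 0.00227 for Pole4 with the label.

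Of 20 other nucleotide supply genes, 6 (30%) were lower and 0 higher in DC under scrambled siRNA. Of all genes 5.45% were lower, and of the brightest part 11.9%. The 3 list genes with the smallest p belong to purine and pyrimidine synthesis de novo, but not every gene of these pathways was lower. The pyrimidine gene Cad had a mean of 10.87 in DC scrambled arrays against 10.58 in CC scrambled arrays, and the purine gene Gart 10.19 against 10.15. Ppat, the first committed enzyme of purine synthesis, was at 9.30, 9.17, 9.34 and 9.25 in DC scrambled arrays, against 9.73 and 9.92 in CC scrambled arrays (-0.56 ± 0.0870 SE, limma adjusted p = 0.00063), without overlap. Paics, also of purine synthesis, had -0.50 ± 0.0973 and Umps, of pyrimidine synthesis, -0.42 ± 0.0900. The count was 1 without CC scrambled array 2, 4 without DC scrambled array 1, 2 or 4, and 7 lower with 1 higher without CC scrambled array 1. With the Hes3 label 12 were lower in DC and 1 higher, the pyrimidine enzyme gene Cad (0.48 ± 0.0890), and the 12 became 7 without CC array 1 so labelled, 8 without CC array 2 and 7 without DC arrays 1 and 5. Of all genes 18.8% were lower and 21.2% higher in that comparison. With the label in DC 7 (35%) were lower, where 18.3% of all genes and 24.7% and 40.9% of the third and brightest parts were. The 2 higher (10%, against 28.9% of all genes) were Dctpp1, which hydrolyses dCTP (0.27 ± 0.0679), and Shmt1, of folate metabolism (0.25 ± 0.0626). Without DC array 5 labelled Hes3 siRNA, or without DC scrambled array 1 or 4, 2 were lower and 2 higher. Without DC scrambled array 3, 4 were lower and 2 higher, and without both DC arrays 1 and 5 labelled Hes3 siRNA, 0 were lower and 0 higher.

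Of 25 E2F, pocket protein and S phase kinase genes, 6 (24%) were lower and 0 higher in DC under scrambled siRNA. Of all genes 5.45% were lower, and of the brightest part 11.9%. The 6 included the repressor E2f6 (-0.53 ± 0.0999), the E2F partner Tfdp1 (-0.45 ± 0.0935), the kinase Cdk2 (-0.32 ± 0.0720) and its activating phosphatase Cdc25a (-0.35 ± 0.0799). Without CC scrambled array 2, 1 was lower and 1 higher, and without CC scrambled array 1, 7 and 0. With the Hes3 label 17 were lower in DC against CC and 1 higher (8 and 1 without CC array 2 so labelled, 10 and 0 without CC array 1, and 11 and 1 without DC arrays 1 and 5). Of all genes 18.8% were lower and 21.2% higher in that comparison, and 44.5% of the brightest part were lower. With the label in DC 9 (36%) were lower and 2 (8%) higher. Of all genes 18.3% were lower and 28.9% higher there, and 40.9% of the brightest part were lower. The smallest p belonged to Rb1, the retinoblastoma protein that restrains E2F. Rb1 was at 9.17, 9.68, 9.32 and 9.80 in DC arrays labelled Hes3 siRNA, against 10.3, 10.3, 10.1 and 10.2 in DC scrambled arrays (-0.72 ± 0.109 SE, limma adjusted p = 0.00196). Its relative Rbl2 (-0.39 ± 0.0650), the E2F partner Tfdp2 (-0.44 ± 0.0814) and cyclin A2, Ccna2 (-0.42 ± 0.0876), were also lower, so the genes that passed include both restrainers and promoters of the G1/S wave. Without DC arrays 1 and 5, 2 of 25 were lower and 0 higher.

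Replication-dependent histone genes, whose transcripts accumulate in S phase, had 2 of 22 lower in DC under scrambled siRNA (H4c4 at -0.39 ± 0.0887 and H4c14 at -0.29 ± 0.0777), 11 of 22 under the Hes3 label and 5 of 22 with the label in DC (H2bc4 at -0.73 ± 0.131). These are 9.09%, 50% and 22.7% of the list, where 5.45%, 18.8% and 18.3% of all genes were lower, so the share with the label in DC was near that of all genes. The 2 became 0 without CC scrambled array 2, 1 without DC scrambled array 2 or 4 and 6 without CC scrambled array 1. The 11 became 5 without CC array 2 labelled Hes3 siRNA and 8 without DC arrays 1 and 5. The 5 became 3 without DC array 5 labelled Hes3 siRNA or without DC scrambled array 1, 3 or 4, and 1 without DC arrays 1 and 5. These genes are near-identical copies, so single members are uncertain.

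Of 26 mitosis genes, whose products act after S phase, 8 were higher and 0 lower in DC against CC under scrambled siRNA, with a median of 0.24. Of all genes 3.09% were higher in that comparison, and of the brightest part 6.92%. Kif23, a cytokinesis motor, was at 10.5, 10.5, 10.4 and 10.4 in DC scrambled arrays, against 9.71 and 9.77 in CC scrambled arrays (0.70 ± 0.128 SE, limma adjusted p = 0.00232). Cenpf, Anln and Ect2, of kinetochore and cytokinesis, had 0.44 ± 0.0826, 0.49 ± 0.105 and 0.51 ± 0.121. The count was 2 higher and 1 lower without CC scrambled array 1, with a median of 0.09, and 7 higher without CC scrambled array 2, with a median of 0.36. Under the Hes3 label 11 of 26 were lower with culture and 0 higher (3 without CC array 2 so labelled, 6 without CC array 1, 7 without DC array 1 and 4 without DC arrays 1 and 5). Of all genes 18.8% were lower in that comparison. The brightest part, which holds 23 of the 26, had 44.5% lower, near the 42.3% of this list. With the label in DC 23 of 26 were lower (4 of 26 without DC arrays 1 and 5), where 18.3% of all genes and 40.9% of the brightest part were. The median of the 26 was -0.36, against -0.10 for the 39. Whether the lists differ was not tested, since genes are not replicates.

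The 33 members with a promoter were also divided by the E2F forms. Under scrambled siRNA 3 of 13 with a form and 5 of 20 without were lower in DC. With the Hes3 label 6 of 13 and 15 of 20 were lower in DC, and with the label in DC 3 of 13 and 7 of 20. In the same order, 5.45%, 18.8% and 18.3% of all genes were lower, and 11.9%, 44.5% and 40.9% of the brightest part. Without DC arrays 1 and 5 labelled Hes3 siRNA, 0 members passed with the label in DC. Whether members with and without a form differ was not tested. Of the 13 with a form, E2f2, Cdc6 and Cdt1 were the 3 lower under scrambled siRNA, and Pola1, Mcm6 and Mcm7 the 3 lower with the label in DC. Rrm2 and Prim1, of the largest culture differences among the members under scrambled siRNA, have none of the exact forms in the window.

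Markers of other cell types moved with the label in DC. All 7 acinar and duct markers were higher in the arrays labelled Hes3 siRNA (mean log2 signal 7.60 to 7.82 per array, against 7.34 to 7.50 in scrambled arrays), as were 7 of 12 fibroblast, endothelial and macrophage markers (7.46 to 7.61 against 7.29 to 7.37) and 4 of 6 alpha, delta and PP cell markers (9.30 to 9.40 against 9.07 to 9.17). Of 11 beta cell markers, 1 was higher and 4 were lower (11.5 to 11.6 against 11.6 to 11.7). Without DC arrays 1 and 5 labelled Hes3 siRNA, 0 markers of the first 3 lists were higher and 1 beta cell marker was lower. Acinar and duct markers lay at the 21.8th to 55.3th percentile of mean signal and fibroblast, endothelial and macrophage markers at the 10.9th to 72.8th. Alpha, delta and PP cell markers lay at the 15.3th to 99.2th. The brightest of these, Gcg and Sst, had means of 11.56 and 11.51 in DC arrays labelled Hes3 siRNA. In DC scrambled arrays they had 11.65 and 11.27, and the arrays overlapped for both genes. From the dimmest to the brightest of the 4 parts of all genes, 36.9%, 56.9%, 19.6% and 2.39% were higher with the label in DC. With culture under the Hes3 label 4 of 7 acinar and duct markers, 4 of 6 alpha, delta and PP cell markers and 3 of 12 fibroblast, endothelial and macrophage markers were higher in DC, against 21.2% of all genes, with 0, 1 and 1 lower, and 1, 0 and 1 were higher without DC arrays 1 and 5. Without CC array 2 so labelled these counts were 0, 0 and 0, and without CC array 1 they were 0, 0 and 1. With culture under scrambled siRNA 0 of these 3 lists' markers were higher, and 1 alpha, delta and PP cell marker and 1 fibroblast, endothelial and macrophage marker were lower. The part of these markers in the differences of the 39 genes was not tested.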

How the data were processed

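Expression was measured on 12 Affymetrix arrays, and groups came from the sample titles. The deposited table holds log2 values per probe set (35556), from 3.94 to 14.4. The log2 scale was read from the values, and the authors' summarization, background correction, normalization and software are not given in the sources used here. The platform annotation gave 21789 probe sets a single symbol, 1621 several and 12146 none. Of the single-symbol probe sets of a gene, the one with the highest mean over 12 arrays was used, which left 19938 genes with no filter. The 39 members' Entrez identifiers all gave the same symbol. Positions and sequences came from RefSeq GRCm38.p6 promoter records and were not matched to the arrays' build.

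Fold changes were fitted by lmFit and eBayes of limma 3.58.1 under R 4.3.3 (a mean per group over all 12 arrays, 8 residual and 7.62 prior degrees of freedom) in 5 comparisons, two-sided, with Benjamini-Hochberg adjustment over 19938 genes and a threshold of 0.05. Errors are the model's SE for fold changes and SD for group means. Genes were also put in 4 equal parts by mean signal. Motifs were searched with Python 3.11.15 and figures drawn with matplotlib 3.10.9. The fit was tested on simulated data.

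All members are named, and from other lists at most the 4 genes with the smallest p in a comparison. Rpa2, Cad, Gart and the cell markers Slc2a2, Gcg and Sst were named after their values were seen, as was the promoter of Mcm6. Members, lists, rules and alternatives were chosen with earlier results of these data known. Alternatives were quantile, median centring and cyclic loess normalization, a filter on genes below the 40th percentile of signal, trend and robust moderation, fitting only the arrays compared, the mean of probe sets, array weights, a block for the replicate number, a 1.5-fold minimum, and fits without each array in turn or without both DC Hes3 siRNA arrays 1 and 5.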

Additional observations from a re-analysis of the deposited data

Results flagged for a closer look

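Of 78 sets of 4 arrays (39 genes in each DC group), 5 had an array farther from the other 3 than Dixon's 95% criterion allows, and chance alone marks about 1 in 20 sets. All 5 were in the DC group labelled Hes3 siRNA. Array 1 was low for Pola2 (9.374, others 9.798 to 9.864) and E2f2 (8.403, others 8.525 to 8.544) and high for Uhrf1 (9.998, others 9.824 to 9.846). Array 7 was high for Cdc45 (9.642, others 9.591 to 9.594), and array 5 was high for E2f1 (10.08, others 9.887 to 9.908).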

How the results depend on the processing

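In the 3 comparisons with calls, no member that passed in the fit described above changed sign in any alternative. With the siRNA label in DC, 13 members passed (47.2% of all genes), and 7 under cyclic loess (21.6%), 1 with the replicate block (3.11%), 0 at a minimum of 1.5-fold (0.983%) and 0 without DC arrays 1 and 5 labelled Hes3 siRNA (1.66%). Leaving out each array gave 9 to 13. With DC against CC under scrambled siRNA, 8 members passed (8.54% of all genes), and 5 with array weights (5.29%), 3 with the replicate block (4.03%) and 2 at a minimum of 1.5-fold (1.74%). Leaving out each array gave 2 to 16. Under the Hes3 label 27 members passed (40.1% of all genes), 7 at a minimum of 1.5-fold (5.53%) and 18 with the replicate block (20.3%). Leaving out a DC array gave 26 or 27. The members' median of -0.37 was -0.38 without CC array 1 so labelled and -0.31 without CC array 2. The label's difference in DC against that in CC called 0 members, and 0 to 9 leaving out each array. In CC the label called 0 in every setting run, and the members' median of 0.04 was -0.02 without CC array 2 labelled Hes3 siRNA, -0.04 without CC scrambled array 1 and 0.13 without CC scrambled array 2. Apart from the fewer arrays or the fold minimum itself, the cause was not tested.

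Scaling moved the background. With the label in DC, all genes split 28.9% higher and 18.3% lower, 14.6% and 25.2% after median centring and 8.5% and 13.1% after cyclic loess, and members split 1 higher and 8 lower after quantile normalization. Median centring moved the median of all genes under the Hes3 label to -0.02, against 0.09 as deposited, and gave 34 members lower and 0 higher, with a member median of -0.48. There all genes split 5.19% higher and 24.8% lower, against 21.2% and 18.8%, and Pold1 lost its call. Orc1 and Gins1 could not be fitted with dim genes left out. Correlations between the deviations of same-numbered arrays ran from -0.441 to 0.253. They were negative between the DC groups (-0.368 and -0.327) and 0.253 between the CC groups, where 2 arrays per group yield a single value. The labels do not state that a number marks a shared culture or day, so the numbers were not taken as pairs. Whether calls lost with the block reflect a shared culture was not tested. Each CC group holds 2 arrays, and Orc1 and Gins1 are the dimmest members.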
